A study of Mus musculus with 30 samples.

Results

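Neurexins, neuroligins and the leucine-rich repeat transmembrane proteins (LRRTMs) are cell adhesion proteins of the synapse, and 9 of their genes were followed here through ribosome-associated RNA of the mouse nucleus accumbens. The members were the rows of the count table whose Ensembl identifiers carry the symbols Nrxn2, Nrxn3, Nlgn1, Nlgn2, Nlgn3, Lrrtm1, Lrrtm2, Lrrtm3 and Lrrtm4 in the GENCODE M21 annotation, 9 of 55335 genes. They comprised 2 neurexin genes, 3 neuroligin genes and 4 LRRTM genes.

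Ribosome-bound RNA was captured by an antibody to the HA tag on a ribosomal protein (RiboTag, written RT in the genotype names). All animals were female. The D1-Cre-RT genotype tags ribosomes where the D1 dopamine receptor promoter drives Cre, and its libraries are called D1. The A2A-Cre-RT genotype tags ribosomes where Cre follows the adenosine A2A receptor, a gene of the medium spiny neurons that carry the D2 dopamine receptor, and its libraries are called D2. Each genotype was divided into Control mice and mice that had been through chronic witness defeat stress, which social interaction scores placed in a Resilient or a Susceptible group. The 6 groups held 5 libraries each, 30 in all. A library pooled 4 mice with similar scores, whose tissue was punched out 24 h after that behavioural test. The sources used here do not give the age of the mice. A tag driven by Cre marks every cell in which that promoter is active, so neither class is a pure cell type by construction.

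Neurexins sit in the presynaptic membrane and bind partners across the cleft. Neuroligins and LRRTMs are postsynaptic partners of neurexins, neuroligins through an esterase-like domain and LRRTMs through leucine-rich repeats. Nlgn1 protein is known from excitatory synapses, Nlgn2 from inhibitory synapses and Nlgn3 from both kinds, while LRRTMs are known from excitatory synapses. Medium spiny neurons are themselves inhibitory, receive excitatory input from cortex and thalamus, and inhibit each other, so they can carry these proteins on either side of a synapse.

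A single count per gene pools all transcripts of that gene. Nrxn3 makes long and short forms from start sites far apart, and the count adds them up. The 250 bases upstream of 1 internal start, 1090 kb after the annotated start of the gene, are printed because reads from this start and from the earlier ones are not separated in any Nrxn3 value given here (RefSeq, GRCm38.p6, chr12:89812233-89812482, plus strand, CG dinucleotides in capitals).
Nrxn3 internal start, upstream 250 bases: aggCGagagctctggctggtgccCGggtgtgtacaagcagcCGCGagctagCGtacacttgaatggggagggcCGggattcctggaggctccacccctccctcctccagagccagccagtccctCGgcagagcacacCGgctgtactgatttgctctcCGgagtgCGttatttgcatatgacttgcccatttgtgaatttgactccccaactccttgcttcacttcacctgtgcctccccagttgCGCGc
The stretch holds 12 CG dinucleotides on the printed strand. Of 32851 RefSeq upstream windows of the same length, 33.5% hold at least as many, and the median window holds 6.

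Gene counts per library ran from 28996168 to 65882152, and a tested member had between 437 and 62139 counts in a library. D2 Susceptible replicates 1 and 2 stood apart, with 15822 and 16525 genes detected against 19440 to 22375 in the other 28 libraries. D1 Susceptible replicate 1 had 54.9% of its gene counts in the single feature Gm42418. Class markers followed the labels in most libraries, but the classes overlapped in the D1 markers. The summed level of 7 D1 markers was 1736 to 2609 CPM (counts per 1000000 on TMM-scaled library sizes) in D1 libraries and 281 to 1858 in D2 libraries. That of 5 D2 markers was 1120.4 to 2771 CPM in D1 and 4867 to 12799 in D2. Of the 7 D1 markers 6 were called higher in D1, and 5 of 5 D2 markers higher in D2 (edgeR). Over all genes, 13.8% and 15.5% were called in these directions for the mean of the 3 groups. D2 Resilient replicate 5 had the highest D1 sum (1858 CPM) and the lowest D2 sum (4867 CPM) of the 15 D2 libraries. Its D1 sum was above those of D1 Control replicate 1 (1786 CPM) and D1 Susceptible replicate 1 (1736 CPM). It was kept in comparisons with D2 Resilient libraries unless its removal is stated.

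The 9 genes lie on 8 chromosomes and differ greatly in extent. On GRCm38, Nrxn3 spans chr12:88722876-90334935 on the plus strand, Nlgn1 spans chr3:25426215-26332460 on the minus strand and Lrrtm4 spans chr6:80018877-80810143 on the plus strand. Nrxn2 lies at chr19:6418731-6544169 (plus), Nlgn2 at chr11:69823122-69837784 (minus) and Nlgn3 at chrX:101299168-101325963 (plus). The other LRRTM genes each lie inside an alpha-catenin gene on the opposite strand. Lrrtm1 is at chr6:77242689-77257791 (plus) within Ctnna2, Lrrtm2 at chr18:35209003-35215024 (minus) within Ctnna1, and Lrrtm3 at chr10:63928472-64090277 (minus) within Ctnna3. Lrrtm1 and Lrrtm3 share no annotated exon base with their hosts, and Lrrtm2 shares 95 bases, 1.58% of its exons. No source used here gives the strand setting of the counting, so reads in such shared bases cannot be assigned to 1 gene. Larger shared stretches occur in Nlgn3, where 41.2% of the exon bases also belong to Gm21986 on the same strand, and in Lrrtm4, where 25.1% lie opposite the antisense gene Gm4409. Nlgn1 shares 9.16% of its exon bases with the antisense gene A830092H15Rik, and Nrxn2 shares 682 bases with Slc22a12 and 207 with Gm14964, both on the opposite strand.

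Nrxn2 was almost uncounted. It had 24 counts over all 30 libraries together, none in 20 of them and at most 7 in any 1, which was D1 Susceptible replicate 2. A count of 0 in a library allows up to 3 counts, 0.0430 to 0.304 CPM depending on the library, and such limits cover counting error only because the libraries carry no molecular identifiers. Nrxn2 did not reach the minimum count for testing, so 8 of the 9 members were tested and no comparison includes it. Between 0.344% and 1.84% of the reads of a library were left unassigned as ambiguous between genes. Whether reads of Nrxn2 are among these was not tested, and the value is a statement about this count table.

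**Figure D1:**
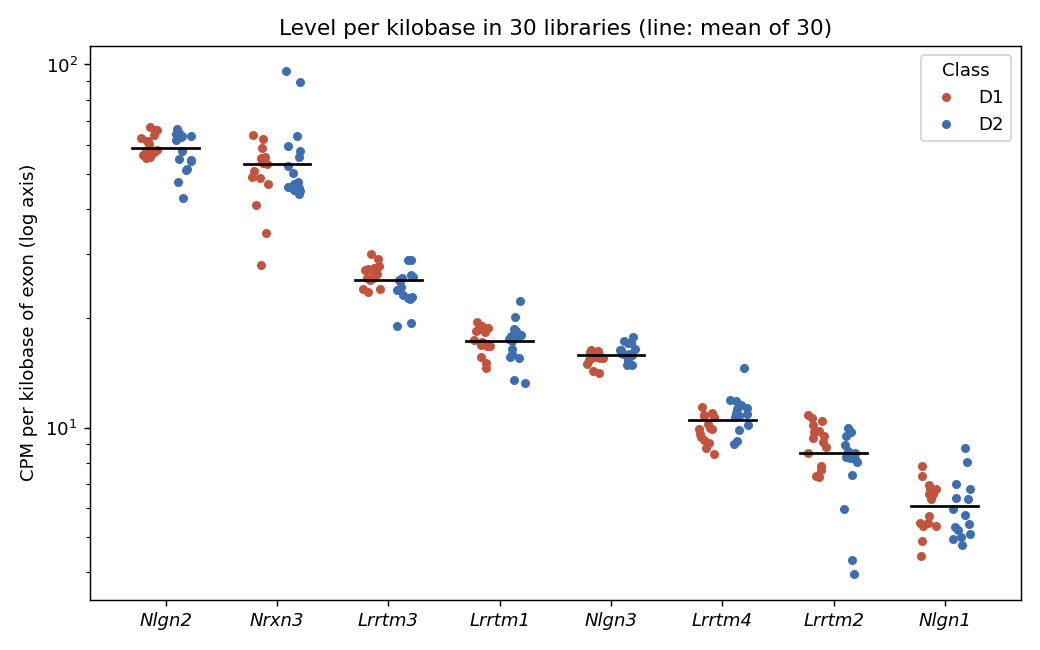
CPM per kilobase of exon (vertical, log axis) for the 8 tested members in each of 30 libraries (points, D1 red and D2 blue), with the mean of 30 as a line. Nlgn2 and Nrxn3 lie highest at means of 59.0 and 53.3, Nlgn1 lies lowest at 6.09, and neighbouring genes overlap in range.

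Levels were compared between genes per kilobase of annotated exon, over all 30 libraries. Nlgn2, the neuroligin of inhibitory synapses, had the highest mean at 59.0 CPM per kb (range 43.02 to 67.4), followed by the neurexin gene Nrxn3 at 53.3 (28.02 to 95.9). Lrrtm3 led the LRRTMs at 25.5 CPM per kb (19.1 to 30.1), before Lrrtm1 at 17.3 (13.3 to 22.3). Nlgn3 was at 15.9 (14.1 to 17.8) and Lrrtm4 at 10.5 (8.48 to 14.6). Lrrtm2 at 8.50 (3.94 to 10.8) and Nlgn1 at 6.09 (4.42 to 8.79) were the lowest of the tested genes. Each gene's range overlapped that of the next in this order, although Nrxn3 exceeded Lrrtm3 in all 30 libraries, Lrrtm3 exceeded Lrrtm1 in 30 and Nlgn3 exceeded Lrrtm4 in 30. Nlgn2 exceeded Nrxn3 in 23 of 30 libraries, and Lrrtm1 exceeded Nlgn3 in 23. The order at these places depended on the length used. With the longest transcript as length Nrxn3 came first at 84.9 and Nlgn2 second at 61.3 CPM per kb. With only exon bases that no other gene shares, Nlgn3 moved to the third place at 27.03, above Lrrtm3 at 25.5 and Lrrtm1 at 17.3.

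Shares of each paralog were then taken within families. On the per-kilobase scale Nlgn2 made up 72.7% ± 3.09 (SD, n = 30) of the neuroligin sum, Nlgn3 19.7% ± 1.72 and Nlgn1 7.58% ± 1.66. Of the LRRTM sum, Lrrtm3 made up 41.2% ± 1.93, Lrrtm1 28.1% ± 2.40, Lrrtm4 17.03% ± 1.88 and Lrrtm2 13.7% ± 2.03. The same order of shares by mean held in all 6 groups for both families. These shares divide by all annotated exon bases and depend on that length. With only exon bases that no other gene shares, the means were 59.0 (Nlgn2), 27.03 (Nlgn3) and 6.70 CPM per kb (Nlgn1). That length would raise the share of Nlgn3 and lower that of Nlgn2. Lrrtm4 was at 14.0 CPM per kb with it. Single libraries varied more, with Nlgn1 from 5.48% to 12.7% and Lrrtm2 from 7.68% to 16.5%. The highest share of Nlgn1 and the lowest share of Lrrtm2 both came from the D2 Susceptible group.

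**Figure D2:**
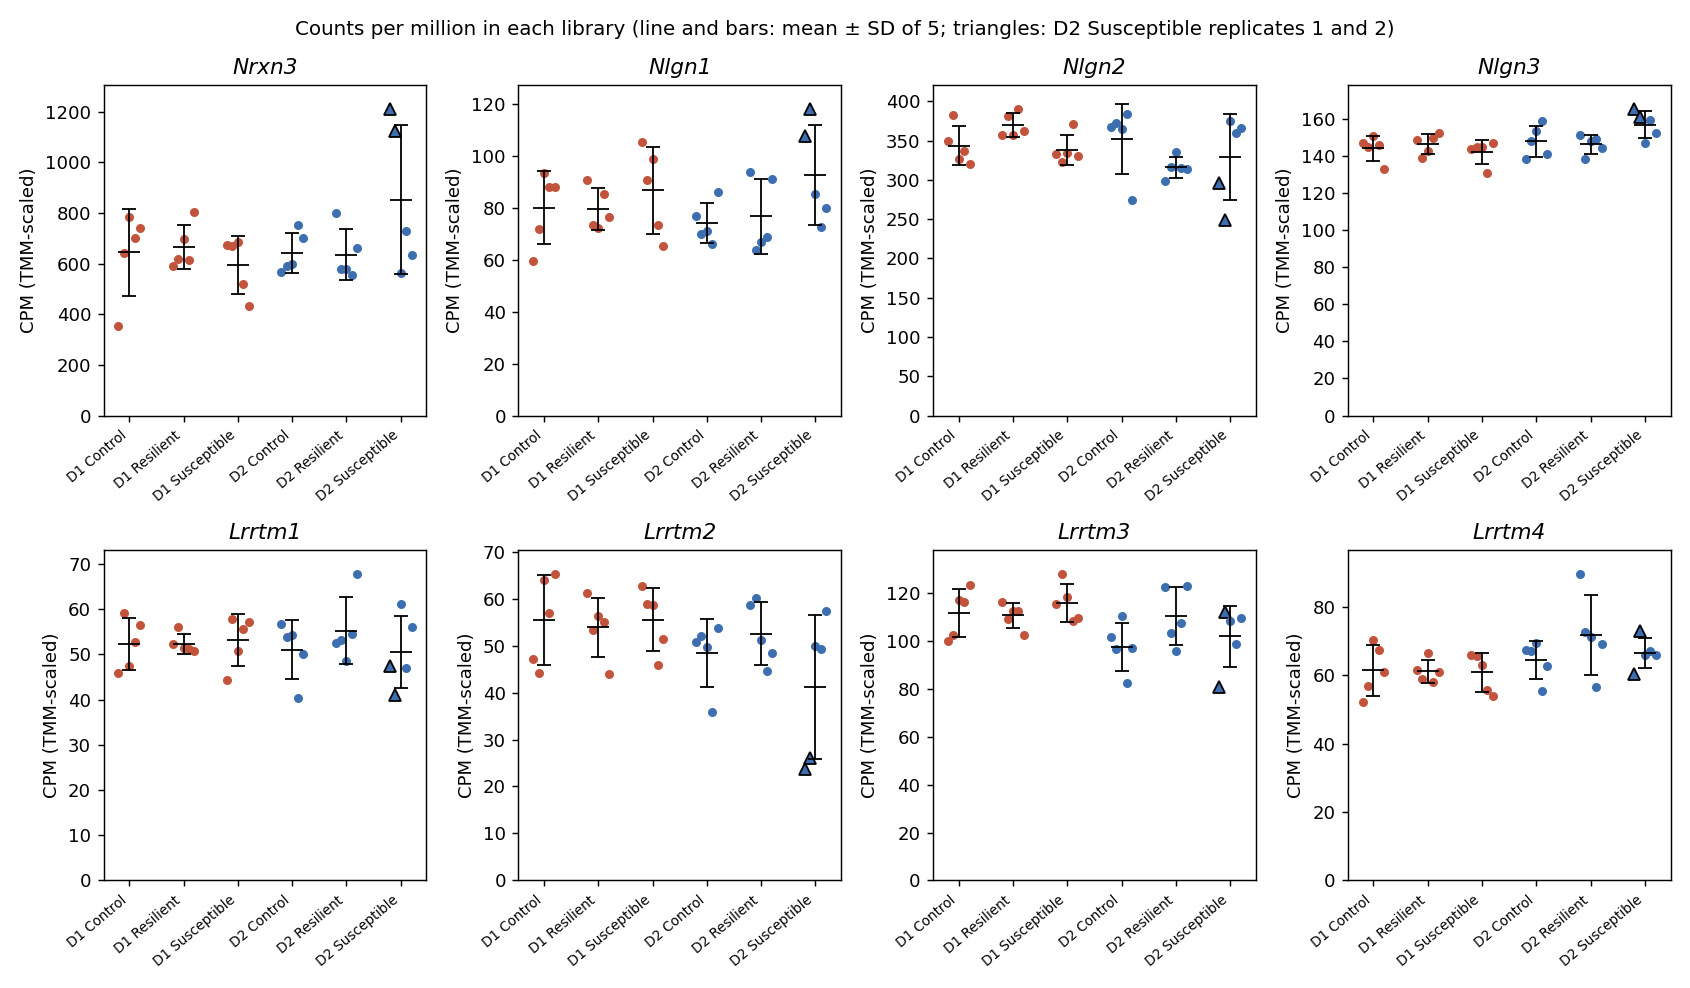
CPM in each library (vertical axes from 0) for the 8 tested members by group (horizontal), D1 red and D2 blue, with the mean and SD of 5 libraries in black and D2 Susceptible replicates 1 and 2 as triangles. Those 2 libraries lie highest for Nrxn3 (1209 and 1125 CPM) and lowest for Lrrtm2 (23.7 and 26.0 CPM).

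Stress was first compared within each class, which addresses whether the ribosome-associated RNA of these genes differed with exposure or with its social outcome. No member was called in any of the 6 comparisons. Of the 8 tested, 0 had an adjusted p under 0.05 (edgeR's quasi-likelihood test with Benjamini-Hochberg adjustment over 19368 genes) in D1 Susceptible, D1 Resilient or D2 Resilient against their Control, or in D1 Susceptible against D1 Resilient. The background was as empty, with 0.0% of all genes tested called in each of these 4. In D2 Susceptible against D2 Control, 0 of 8 members and 0.00516% of all genes were called. In D2 Susceptible against D2 Resilient, the values were 0 of 8 and 0.0516%.

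At an unadjusted p under 0.05 the members gave 0 of 8 in each of the 3 D1 comparisons, where 2.40%, 2.60% and 3.49% of all genes did so, and 0 of 8 in D2 Resilient against Control, where 4.20% did. They gave 2 of 8 in D2 Susceptible against Control (15.7% of all genes) and 1 of 8 in D2 Susceptible against Resilient (19.1%). DESeq2's Wald test also called 0 of 8 in each of the 6 stress comparisons.

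In D1 libraries the member differences were small. In D1 Susceptible minus Control they ran from -0.11 (Nrxn3) to 0.11 (Nlgn1) on the log2 scale, and in D1 Resilient minus Control from -0.042 (Lrrtm2) to 0.11 (Nlgn2). The 95% intervals of single genes reached from -0.51 to 0.44 over both comparisons. Nlgn3 was bounded most closely, with an interval of -0.14 to 0.10 in D1 Susceptible minus Control. Nrxn3 had the widest interval there, -0.51 to 0.28.

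**Figure D3:**
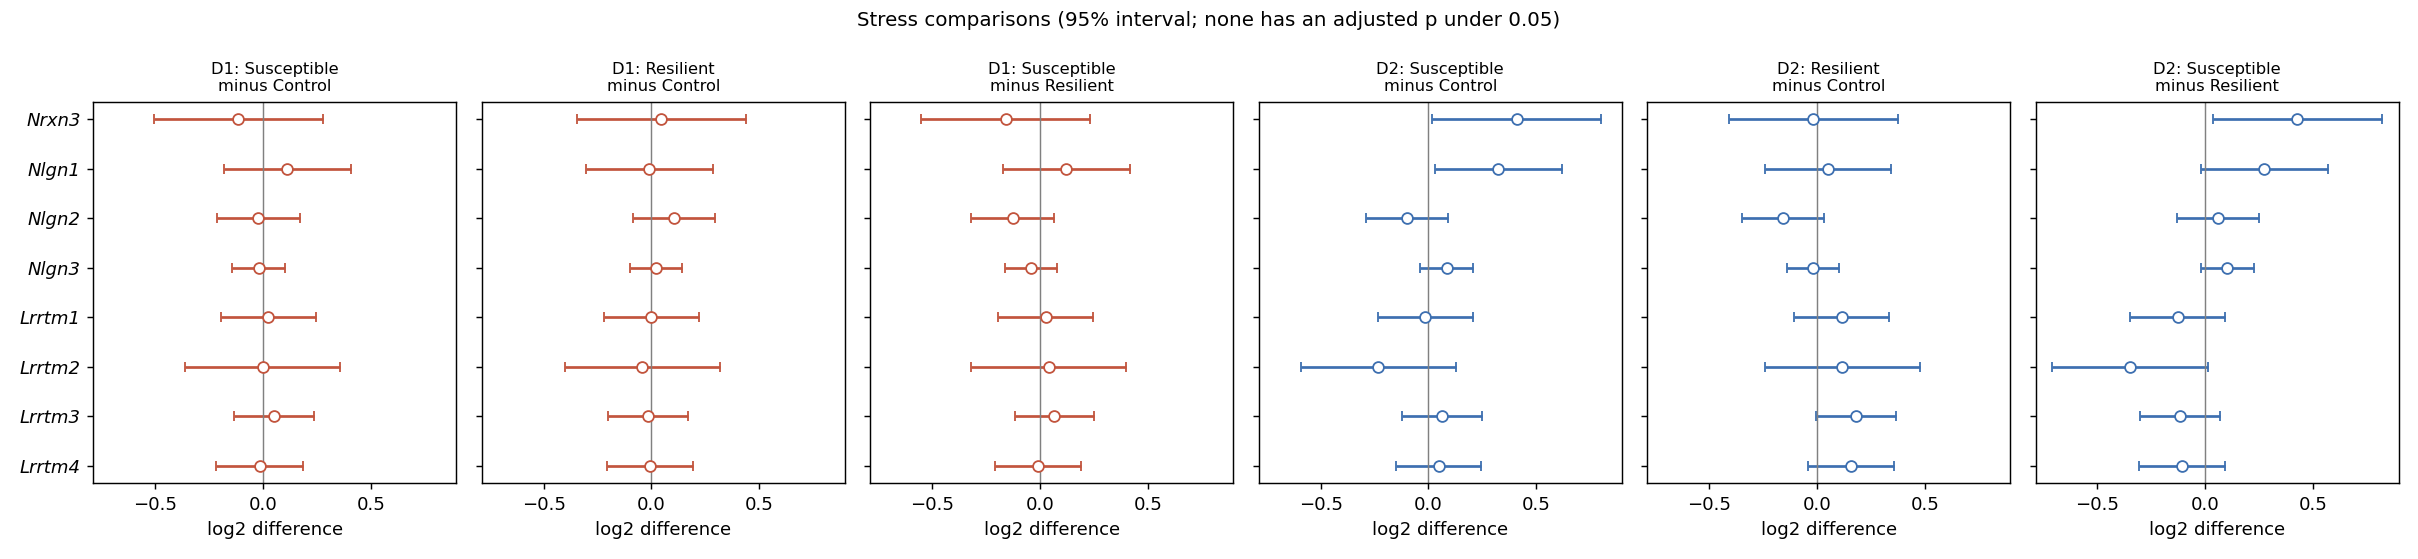
Log2 differences (horizontal, with 95% intervals) of the 8 tested members (vertical) in the 6 stress comparisons, D1 red and D2 blue, open symbols marking an adjusted p of 0.05 or more. Intervals of Nrxn3 lie above 0 in both comparisons of D2 Susceptible, at 0.41 and 0.43, and no symbol is filled.

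Nrxn3 was the neurexin gene that could be followed. Its 5 D1 Control libraries were at 353, 643, 785, 703 and 740.3 CPM, the D1 Resilient ones at 592, 617, 698, 614 and 804, and the D1 Susceptible ones at 675, 671, 683, 518 and 432. These 3 groups overlapped widely. The D2 Control libraries were at 567, 590.3, 599, 751 and 702 CPM, the D2 Resilient ones at 799, 578, 580.3, 554 and 661, and the D2 Susceptible ones at 1209, 1125, 564, 728 and 634. D2 Susceptible replicates 1 and 2 were the highest of all 30 libraries, and of the other 3 in that group, replicates 4 and 5 lay inside the range of the D2 Controls and replicate 3 just below it. The mean was 852 ± 295 CPM (SD, n = 5) in D2 Susceptible and 642 ± 80.1 in D2 Control. The log2 difference of 0.41 (SE 0.19, edgeR adjusted p 0.298) was not called, nor was the 0.43 (SE 0.19, edgeR adjusted p 0.222) against Resilient. Without replicates 1 and 2 the differences were -0.0068 and 0.014.

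Nlgn1, which in these libraries was the lowest neuroligin, had a like distribution. Its D2 Susceptible libraries were at 108, 118, 85.3, 72.8 and 80.1 CPM, and its D2 Control libraries at 77.03, 70.1, 71.3, 66.1 and 86.04. Replicates 1 and 2 again lay above the other 28 libraries, and the other 3 overlapped the Controls. The log2 difference was 0.32 (SE 0.14, unadjusted p 0.0315, edgeR adjusted p 0.273), and it was 0.093 without these 2 libraries. In D1 Susceptible, Nlgn1 was at 86.7 ± 16.9 CPM (SD, n = 5) against 80.2 ± 14.2 in D1 Control.

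Lrrtm2, a postsynaptic neurexin partner, lay on the other side. Its D2 Susceptible libraries were at 23.7, 26.0, 49.9, 49.4 and 57.3 CPM, and its D2 Control libraries at 50.8, 52.02, 49.8, 35.9 and 53.8. The first 2 were the lowest of all 30 libraries, and the other 3 lay among the Controls or above them. The log2 difference was -0.23 (SE 0.18, edgeR adjusted p 0.536) against Control and -0.35 (SE 0.18, edgeR adjusted p 0.278) against Resilient. Without replicates 1 and 2 the difference from Control turned to 0.099.

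Of the 8 tested members, 4 had both of these libraries outside the range of the other 28. These were Nrxn3, Nlgn1 and Nlgn3 above and Lrrtm2 below. Of all genes tested, 26.0% did so, 10.3% above and 15.7% below, so the members' 4 of 8 stands beside a high background. Nlgn3 was at 165 and 161 CPM in the 2 libraries against 131 to 159 elsewhere. In the same 2 libraries the summed oligodendrocyte markers (5 genes) were 1838 and 1395 CPM, against 397 to 1278 CPM over the D2 Control and D2 Resilient libraries. Endothelial markers (5 genes) were 317 and 217 CPM against 49.4 to 265, and cortical excitatory markers (4 genes) 300 and 141 against 155 to 518. Reads that the counting assigned to no feature, which can include reads in introns, were 11.1% and 10.4%, against 5.20% to 7.79%. The part of any of these in the member values was not tested.

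The remaining members were not called with stress either. Nlgn3 held between 131 and 165 CPM over all 30 libraries, with a coefficient of variation of 3.52% to 5.66% within groups, where the median over all genes tested was 14.9% to 39.5%. Nlgn2 was at 329 ± 54.8 CPM (SD, n = 5) in D2 Susceptible, 316 ± 13.1 in D2 Resilient and 352 ± 44.4 in D2 Control. Lrrtm1 group means lay between 50.5 and 55.3 CPM. Among D2 libraries Lrrtm3 was at 97.7 ± 10.1 CPM in the Control group, 110.7 ± 12.05 in the Resilient and 102 ± 12.8 in the Susceptible one, and Lrrtm4 at 64.4 ± 5.59, 71.8 ± 11.8 and 66.5 ± 4.53 in the same order. The largest of the 8 differences in D2 Resilient minus Control was that of Lrrtm3, 0.18 (95% interval -0.0051 to 0.36, edgeR adjusted p 1.00).

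The difference between the D1 and D2 changes was tested as an interaction. By edgeR 0 of the 8 members were called in each of the 3 interactions, as were 0.0% of all genes. For Resilient against Control, limma voom with library quality weights called 1 member, Nlgn2. The share of all genes that voom called there is not given here. At an unadjusted p under 0.05 there were 0 members for Susceptible against Control (7.79% of all genes), 0 for Resilient against Control (4.99%) and 1 for Susceptible against Resilient (12.4%). For Susceptible against Resilient, Nrxn3 had the lowest value of the members, a D1 change minus D2 change of -0.58 (SE 0.27, unadjusted p 0.0395, edgeR adjusted p 0.374), which was -0.17 without D2 Susceptible replicates 1 and 2. For Resilient against Control, Nlgn2 had the highest, 0.26 (SE 0.13, unadjusted p 0.0548, edgeR adjusted p 1.00).

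**Figure D4:**
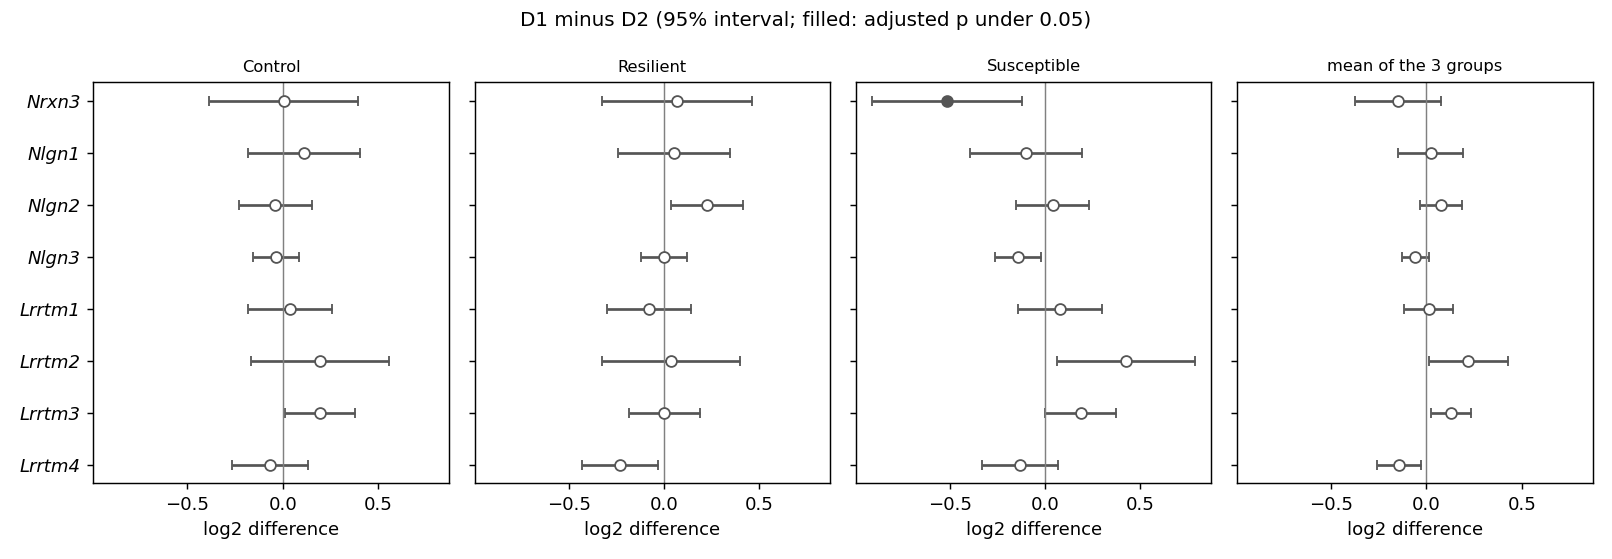
Log2 D1 minus D2 (horizontal, with 95% intervals) of the 8 tested members (vertical) in Control, Resilient and Susceptible libraries and for the mean of the 3 groups, filled where the adjusted p is under 0.05. Nrxn3 in Susceptible libraries, at -0.52, is the only filled symbol.

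The classes were then compared directly. By edgeR 0 of 8 members were called between D1 and D2 in Control libraries, where 8.30% of all genes were. In Resilient libraries 0 of 8 were called, against 6.65% of all genes. The voom fit called Lrrtm3 in Control libraries and Nlgn2 and Lrrtm4 in Resilient ones, and its share of all genes there is not given here. In Susceptible libraries edgeR called 1 of 8, against 23.9% of all genes, and this 1 was lower in D1, as were 13.4% of all genes. For the mean of the 3 groups, 15 D1 against 15 D2 libraries, it called 0 of 8, against 29.3% of all genes. At an unadjusted p under 0.05, the counts were 1 of 8 members in Control (20.0% of all genes), 2 in Resilient (15.2%), 4 in Susceptible (36.6%) and 3 for the mean of the groups (39.4%). For that mean DESeq2's Wald test called 1 member, Lrrtm4, beside 32.5% of all genes. The voom fit called 3, Lrrtm3, Lrrtm4 and Nlgn1, beside 39.8% of all genes. Fewer cells of a type and less RNA per cell cannot be told apart in such pooled tissue.

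The called gene was Nrxn3, lower in D1 Susceptible (596 ± 115 CPM, SD, n = 5) than in D2 Susceptible (852 ± 295). Its log2 difference was -0.52 (SE 0.19, 95% interval -0.91 to -0.12, edgeR adjusted p 0.0496). The groups overlapped, since D2 Susceptible replicate 3 at 564 CPM lay below 3 of the 5 D1 libraries. The call was lost without D2 Susceptible replicate 1 (-0.34, edgeR adjusted p 0.222) or replicate 2 (edgeR adjusted p 0.186), and without D1 Susceptible replicate 2, 3, 4 or 5 (edgeR adjusted p 0.0628, 0.0565, 0.117 and 0.150). With both D2 replicates left out the difference was -0.086 (edgeR adjusted p 0.844). It was also lost with the replicate block (edgeR adjusted p 0.0788), no filter, only the groups compared, Gm42418 left out and the voom fit, and 1 surrogate variable turned the difference to 0.056. In Control and Resilient libraries Nrxn3 differed by 0.0062 and 0.068 between classes.

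Lrrtm2 in Susceptible libraries was the next in size, at 55.5 ± 6.76 CPM in D1 and 41.3 ± 15.3 in D2 (SD, n = 5). Its log2 difference was 0.43 (SE 0.18, edgeR adjusted p 0.0786), which passed without D2 Susceptible replicate 3, 4 or 5, with an adjusted p down to 0.0117, and was 0.11 without replicates 1 and 2. Nlgn3 in the same libraries had -0.14 (SE 0.06, edgeR adjusted p 0.0827), which DESeq2's Wald test called and which was -0.092 without D1 Susceptible replicate 4 (edgeR adjusted p 0.306). The shares of all genes called under these settings are not given here.

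Nlgn2 was the member whose D1 and D2 groups separated. Its D1 Resilient libraries were at 357, 382, 357, 390 and 362 CPM and its D2 Resilient libraries at 298, 317, 335, 316 and 314. Every D1 value lay above every D2 value, as was true of 4.69% of all genes tested (9.70% in either direction). The log2 difference was 0.22 (SE 0.093, 95% interval 0.035 to 0.42, edgeR adjusted p 0.194), so the test did not call it. The D2 group includes replicate 5, whose D1 marker sum reached the D1 range. Leaving out any 1 of the 10 libraries gave 0.21 to 0.26, also not called. It was called when the other 4 groups were left out of the fit (edgeR adjusted p 0.0244) and without D2 Susceptible replicates 1 and 2 (edgeR adjusted p 0.0274). The shares of all genes called in these refits are not given here, so the calls have no background beside them. In Control libraries Nlgn2 differed by -0.038 and in Susceptible ones by 0.039.

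Among the LRRTMs, Lrrtm3 and Lrrtm4 came nearest to the threshold over 15 against 15 libraries, with opposite signs. Lrrtm3 was at 113 ± 7.75 CPM in D1 and 103 ± 12.2 in D2 (SD, n = 15), which is 0.13 on the log2 scale (SE 0.052, edgeR adjusted p 0.0631). Lrrtm4 was at 61.2 ± 5.31 in D1 and 67.6 ± 8.07 in D2, with -0.14 (SE 0.056, edgeR adjusted p 0.0547). Lrrtm2 was at 55.0 ± 7.15 and 47.4 ± 10.9, with 0.22 (SE 0.10, edgeR adjusted p 0.106), and Lrrtm1 at 52.6 ± 4.49 and 52.3 ± 7.11, with 0.012 (edgeR adjusted p 0.917), which turned to -0.024 with the voom fit, -0.072 with 1 surrogate variable and -0.0080 without D2 Susceptible replicates 1 and 2. Leaving out any 1 of 21 of the 30 libraries brought Lrrtm3 under the threshold, with adjusted p from 0.0200 to 0.0820 over all 30, leaving out D1 Susceptible replicate 1 or D2 Resilient replicate 4 did so for Lrrtm4, and D2 Susceptible replicate 3 or 5 for Lrrtm2. Of all genes, 26.1% to 33.5% were called over these refits. Whether the LRRTMs differ from each other in class preference was not tested.

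Lrrtm4 was also followed within Resilient libraries. Its D1 Resilient libraries were at 61.5, 58.9, 66.5, 58.0 and 61.0 CPM, and its D2 Resilient ones at 89.6, 72.8, 71.1, 56.6 and 69.1. Only D2 replicate 4 lay below the highest D1 value, and D2 replicate 1 was the highest of all 30 libraries. The log2 difference was -0.23 (SE 0.098, edgeR adjusted p 0.205), and -0.14 without D2 Resilient replicate 1 (edgeR adjusted p 0.698). In Control libraries it was -0.067 and in Susceptible ones -0.13, and the difference between these was not called (edgeR, interactions).

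Neuroligin differences between classes were small by edgeR. Over 15 libraries each, Nlgn1 was at 82.2 ± 12.99 CPM in D1 and 81.2 ± 16.0 in D2, a log2 difference of 0.022 (95% interval -0.15 to 0.19), and 0.19 with the voom fit, which called it. Nlgn3 was at 144 ± 6.05 and 150.3 ± 8.11 CPM, with -0.059 (95% interval -0.13 to 0.012). Nlgn2 had 0.075 (95% interval -0.034 to 0.19), and its direction turned with the voom fit (-0.0058) and with 1 surrogate variable (-0.0054).

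**Figure D5:**
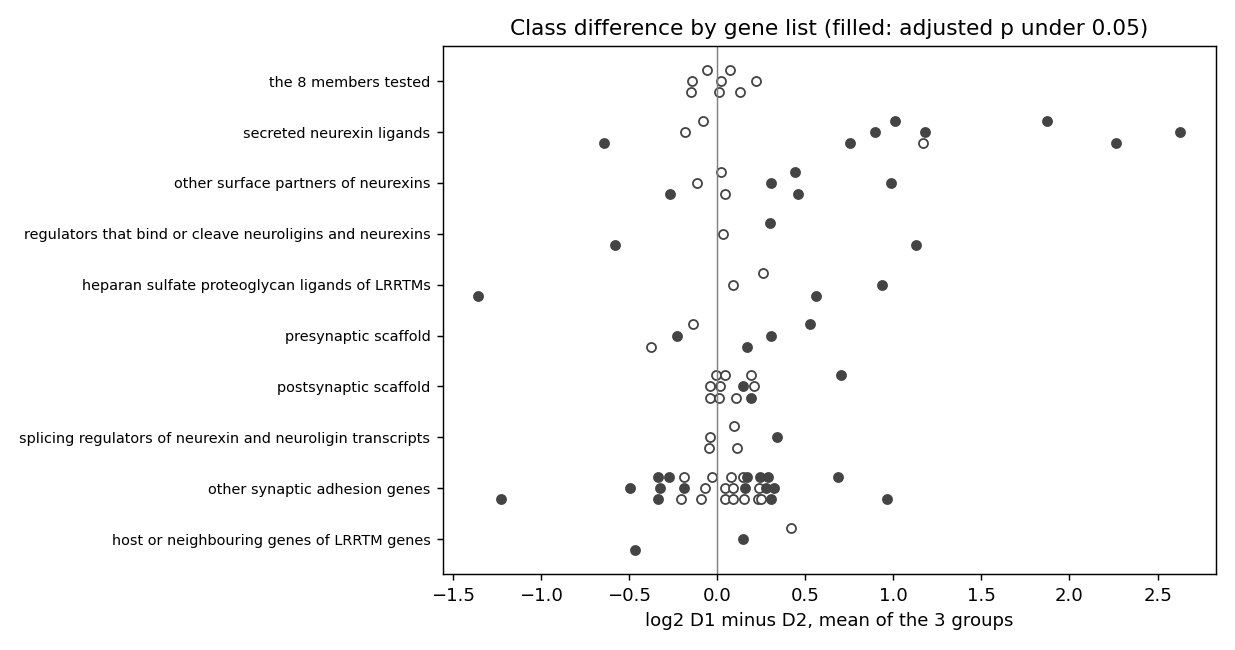
Log2 D1 minus D2 for the mean of the 3 groups (horizontal), 1 point a gene, for the 8 tested members and 9 lists of partner genes (vertical), filled where the adjusted p is under 0.05. No member is filled and all lie between -0.15 and 0.22, while 45 of 85 partner genes are filled.

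The partners of these proteins were examined on 9 lists with 86 genes, 85 of them tested. These lists were chosen with earlier results of these data known, so the share of them called is not an independent test. Within classes, stress called 0 of 85 in each of the 6 comparisons and 0 in the 3 interactions, where at most 0.0516% of all genes were called. At an unadjusted p under 0.05 (edgeR), 14 were higher and 6 lower in D2 Susceptible against Control, beside 15.7% of all genes. Against Resilient 15 were higher and 9 lower, beside 19.1%. The D1 stress comparisons and D2 Resilient against Control had at most 3 in a direction. Between classes, for the mean of the 3 groups, 45 of 85 partner genes (52.9%) were called, 32 with a higher level in D1 and 13 with a higher level in D2, beside the 29.3% of all genes, with 13.8% and 15.5% of all genes in these directions. The median of the 85 was 0.12, and that of all genes was 0.0045. Without D2 Susceptible replicates 1 and 2, 48 of 86 partner genes were called, beside 30% of all genes. Of these 48, 38 were higher in D1, and the share of all genes in that direction is not given here.

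Markers of other cells differed between the classes as well. The sum of 6 interneuron markers was 266 to 437 CPM in D1 and 62.6 to 259.5 in D2 libraries, and 4 of the 6 genes were called higher in D1. The sum of 4 cortical excitatory markers was 476 to 910 CPM in D1 and 141 to 518 in D2, with 4 of 4 called higher in D1. The 6 astrocyte, 5 oligodendrocyte, 3 oligodendrocyte precursor and 5 endothelial markers were all called higher in D2, as were 3 of 5 microglial and 3 of 4 medium spiny neuron markers, and no marker of these lists was at 0 in every library of a group. Over all genes, 13.8% were called higher in D1 and 15.5% higher in D2 for the mean of the 3 groups. The part of these other cells in the partner differences was not tested.

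Secreted neurexin ligands gave the widest class differences, with a median of 1.01. Of 11 genes, 7 were higher in D1 and 1 in D2, beside 13.8% and 15.5% of all genes. Nxph1, a neurexophilin that binds alpha-neurexins, was at 25.8 ± 4.53 CPM in D1 and 5.83 ± 3.84 in D2 (SD, n = 15), which is 2.27 on the log2 scale (SE 0.22, edgeR adjusted p 6.05e-09). Its classes did not overlap, which held for 1.18% of all genes. Cbln1, a cerebellin that bridges neurexins to glutamate receptor delta proteins, had 1.87 (SE 0.20, edgeR adjusted p 1.71e-08), also without overlap. Its levels were low, at 5.66 ± 1.29 CPM in D1 and 1.55 ± 0.597 in D2. Nxph3 had 1.18 (SE 0.15, edgeR adjusted p 3.14e-07).

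Among 8 other surface partners of neurexins, 4 were higher in D1 and 1 in D2, beside 13.8% and 15.5% of all genes. The calsyntenin Clstn2 was at 32.9 ± 3.71 CPM in D1 and 16.6 ± 3.38 in D2 and did not overlap, at 0.99 on the log2 scale (SE 0.085, edgeR adjusted p 1.36e-10). Clstn3 had 0.46 and Igsf21, an inhibitory synapse protein that binds neurexins, 0.44 (edgeR adjusted p 0.000519 and 0.000127). Of 4 genes whose products bind or cleave neuroligins and neurexins, Mdga1 and Mdga2, which block neuroligins from neurexins, went opposite ways. Mdga1 was 1.13 higher in D1 and Mdga2 had -0.58 (edgeR adjusted p 0.000347 and 0.00459), and without D2 Susceptible replicates 1 and 2 Mdga2 had -0.30. Sparcl1, a matrix protein made largely by astrocytes, had 0.30 (edgeR adjusted p 0.00374).

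Glypicans are heparan sulfate proteoglycans, a known kind of LRRTM partner. Of 5 tested, 2 were higher in D1 and 1 in D2, beside 13.8% and 15.5% of all genes. Gpc5 was at 2.72 ± 1.26 CPM in D1 and 6.92 ± 2.00 in D2, with -1.36 (SE 0.18, edgeR adjusted p 9.61e-07). Gpc4 had 0.56 and Gpc3 had 0.93 (edgeR adjusted p 0.0107 and 0.0136). These were also low, Gpc4 at 6.30 and 4.26 CPM and Gpc3 at 3.55 and 2.00 in D1 and D2, with a D2 minimum of 0 for Gpc3. The host genes of the LRRTMs were counted separately. Of the 3, 1 was called higher in D1 and 1 in D2, beside 13.8% and 15.5% of all genes. Ctnna3, host of Lrrtm3, was not called, and had 0.19 without D2 Susceptible replicates 1 and 2 (edgeR adjusted p 0.638). Ctnna1, host of Lrrtm2, had -0.47 (edgeR adjusted p 3.51e-09) and Ctnna2, host of Lrrtm1, had 0.15 (edgeR adjusted p 0.0258), beside 0.22 and 0.012 for the LRRTM genes within them.

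Of 6 presynaptic scaffold genes, 3 were higher in D1 and 1 in D2, beside 13.8% and 15.5% of all genes. Apba1 and Apba2, which encode Mint adaptors that bind the neurexin tail, had 0.53 and 0.30 (edgeR adjusted p 1.13e-07 and 0.000546), and the kinase-like scaffold Cask had 0.17 (edgeR adjusted p 0.00324). On the postsynaptic side 3 of 12 were higher in D1 and 0 in D2, beside 13.8% and 15.5% of all genes. Shank1 was at 117 ± 17.7 CPM in D1 and 72.1 ± 13.3 in D2, with 0.70 (SE 0.083, edgeR adjusted p 7.01e-08), Magi1 had 0.19 and Magi2 0.15 (edgeR adjusted p 0.000672 and 0.00933).

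Of 5 splicing regulators of neurexin and neuroligin transcripts, 1 was called, beside 29.3% of all genes. Khdrbs3, which encodes SLM2, an RNA-binding protein known to control a neurexin exon, was at 122 ± 18.1 CPM in D1 and 96.1 ± 17.1 in D2, with 0.34 (SE 0.081, edgeR adjusted p 0.00173). The counts are per gene and hold no splice junctions, so no splice form of a member was measured. Of 31 other synaptic adhesion genes, 9 were higher in D1 and 7 in D2, beside 13.8% and 15.5% of all genes. Lrfn1 and Lrfn2, which encode SALM proteins, had 0.96 and 0.69 and Flrt3 had -0.49 (edgeR adjusted p 1.32e-08, 6.06e-07 and 6.54e-06), each without overlap of the classes.

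Likeness over the 30 libraries was measured as the mean absolute difference of centred log2 CPM, where a smaller value means a closer profile. The nearest gene to Nrxn3 was Pak3 at 0.072, and the next was Nol8 at 0.081, beside 0.36 for the median gene. For the neuroligins the nearest were Rabep1 to Nlgn1 (0.095), Cd2bp2 to Nlgn2 (0.068) and Rnf145 to Nlgn3 (0.061). For the LRRTMs they were Spg21 to Lrrtm1 (0.080), Vps35 to Lrrtm2 (0.11), Dzank1 to Lrrtm3 (0.064) and Ints6 to Lrrtm4 (0.079). Nlgn3 itself deviated from its own mean by only 0.055, so a flat gene is near it by construction. Among pairs of members, Nlgn2 and Nlgn3 were closest at 0.13 and Nrxn3 and Lrrtm2 farthest at 0.35. All points share the same libraries and scaling, and these values are descriptions.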

How the data were processed

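Raw counts per gene were deposited for 30 libraries, per the file headers, and the libraries were made from 10 ng of RNA each with SMART-Seq v4, per the labels' protocols. HISAT2, HTSeq and GRCm38 (mm10) are named in the submitters' processing notes. No source used here gives versions, the annotation release or the strand setting. Each library file equalled its column in the series table. The 5 summary lines, 10.1% to 53.3% of reads, stayed out of library sizes and tests.

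Genes were kept with filterByExpr (count minimum 10, total minimum 15), leaving 19368 and setting aside 35967. edgeR 4.0.16 in R 4.3.3 (TMM, robust quasi-likelihood F test, 1 model of 6 groups) gave 13 comparisons, with Benjamini-Hochberg adjustment across every gene in the fit and a threshold of 0.05. CPM uses TMM-scaled sizes and level per kilobase divides by the union of exons in GENCODE M21, which gave symbols to 55154 of 55335 identifiers. The fit was tested on simulated data. Alternatives used DESeq2 1.42.0, limma 3.58.1 and sva 3.50.0. Groups and replicate numbers came from titles. Replicates are separate pools of 4 mice, per the labels. Members and lists were chosen with earlier results of these data known. Partner genes were named if called under stress, or if among the 3 of a list with the smallest adjusted p under 0.05 between classes. The order by unshared exons and the refits of the partner count were added after seeing the data. Members were all named. Figures used matplotlib 3.10.9 and tables pandas 2.3.3.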

Additional observations from a re-analysis of the deposited data

Results flagged for a closer look

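In 5 of 48 combinations of a member and a group, 1 library lay far from the other 4 by Dixon's ratio (95% critical value 0.71 for 5 libraries), a test that chance passes in about 1 of 20 groups. Nlgn2 was high in D1 Susceptible replicate 4, at 371 CPM against 322 to 335 in the other 4, and low in D2 Control replicate 5, at 274 CPM against 365 to 384. D2 Control replicate 5 also had the highest D1 marker sum of its group, 1236 CPM. Nlgn3 was low in D1 Susceptible replicate 4, at 131 CPM, where the next library had 144. Lrrtm1 was high in D1 Resilient replicate 2, at 56.0 CPM, in a group that otherwise held between 50.8 and 52.3. Lrrtm2 was low in D2 Control replicate 4, at 35.9 CPM against 49.8 to 53.8.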

How the results depend on the processing

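Across 21 member differences, leaving out single libraries kept direction and side of the threshold in 345 of 380 refits, and other settings did so in 162 of 202. The 21 were the class means, differences with an unadjusted p under 0.05 (edgeR), and Lrrtm2 in D2 Susceptible against Control and Resilient. Only Nrxn3 between the Susceptible groups was called in the main fit, so most refits counted as kept are differences that stayed uncalled. The count of called members was 0 in all refits of the 6 stress comparisons. For D1 against D2 Susceptible it was 1, with 0 to 2 when single libraries were left out, 2 with DESeq2 (Nrxn3 and Nlgn3), and 0 with no filter, only the groups compared, limma voom with library quality weights, 1 surrogate variable, Gm42418 left out, and without D2 Susceptible 1 and 2, or without these and D1 Susceptible 1 and D2 Resilient 5 (4 libraries). It was 1 in D1 against D2 Control with voom (Lrrtm3). In Resilient libraries it was 1 with only the groups compared or without D2 Susceptible 1 and 2 (Nlgn2), and 2 with voom (Nlgn2 and Lrrtm4). For the class mean it was 0, with 0 to 2 without single libraries, 3 with voom (Lrrtm3, Lrrtm4 and Nlgn1), 2 without 4 libraries (Lrrtm3 and Lrrtm4), and 1 with DESeq2 or its size factors (Lrrtm4), no filter, Gm42418 left out or without D2 Susceptible 1 and 2 (Lrrtm3). Of all genes, the class mean called 39.8% with voom, 32.5% with DESeq2, 30.6% without 4 libraries and 18.6% with no filter. Voom also called Nlgn2 (1) in the interaction for Resilient against Control. Shares of all genes under these settings are not given here for comparisons other than the class mean. The cause was not tested. Partner genes called numbered 41 to 49 without single libraries, beside 26.1% to 33.5% of all genes.

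Reversals were as follows. For Nrxn3, D2 Susceptible minus Control was -0.023 with 1 surrogate variable, -0.0068 without D2 Susceptible 1 and 2 and -0.0043 without 4 libraries, and minus Resilient it was -0.053 with the surrogate variable. D1 minus D2 Susceptible was 0.056 with it, and the class mean 0.097 with voom, 0.10 with the surrogate variable and 0.0066 without D2 Susceptible 1 and 2. The class mean of Nlgn2 was -0.0058 with voom and -0.0054 with the surrogate variable, and that of Lrrtm1 -0.024, -0.072 and, without D2 Susceptible 1 and 2, -0.0080. Lrrtm2 in D2 Susceptible minus Control was 0.062 with voom, 0.060 with the surrogate variable, 0.099 without D2 Susceptible 1 and 2 and 0.10 without 4 libraries. The class mean of Nlgn1, 0.022, ranged from -0.011 to 0.072 without single libraries.

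Replicate numbers did not pair the libraries: 0 of 75 same-number pairs had deviations correlated above 0.1 (-0.15 to 0.086), and 5 of 30 libraries correlated best with their own number. With the replicate block the Susceptible class count was 0, Nrxn3 having -0.51 (edgeR adjusted p 0.0788), and no other member call differed. Tested members had 437 or more counts in each library, and of the 9 only Nrxn2 was under the count minimum.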
